A study of Mus musculus with 10 samples.

Results

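The genes described here are 10 genes of the Notch pathway in mouse acute myeloid leukaemia (AML): the receptors Notch1, Notch2 and Notch4, the ligand Jag1, the DNA-binding factor Rbpj, the Mastermind coactivators Maml1, Maml2 and Maml3, the target gene Hes1 and the ubiquitin ligase gene Dtx4. They were found by symbol among the 38215 genes of the deposited table, and each matched 1 row. The 10 were selected with their values in these libraries known. Their differences between recipients are therefore given as descriptions, without adjusted p-values. Nothing is read from the counts of calls among them. A further 80 genes of the pathway, grouped by role, are described beside them. The fourth receptor, Notch3, and the other ligands are among those 80.

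The leukaemia had been made by retroviral transfer of AML1-ETO, a fusion of the genes Runx1 and Runx1t1, and the oncogene NrasG12D into lineage-depleted bone marrow cells, with GFP expressed from the same MSCV-IRES-GFP vector. All cells therefore carried both oncogenes under a viral promoter, and all had grown first in Rag2-/-γc-/- mice. This strain makes no T, B or NK lymphocytes. GFP+ spleen cells of these primary mice were passed to immunocompetent C57BL/6J mice or again to Rag2-/-γc-/- mice, and poly(A) RNA of GFP+ splenocytes was sequenced once the second recipients had AML. Of the 10 libraries, those from C57BL/6J mice are titled 1, 3, 4, 5 and 6, and those from Rag2-/-γc-/- mice 7 to 11. The labels give no age, no treatment beyond the transplant and no number of primary leukaemias, so the p-values below measure the spread between recipients. The stated aim was to ask how passage through an immune system edits the transcriptome of the leukaemia.

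Notch receptors are surface proteins that are cut after binding a Jagged or Delta ligand on a neighbouring cell. The last cut, by the γ-secretase complex, frees an intracellular part that enters the nucleus, binds Rbpj and, with a Mastermind protein and an acetyltransferase such as p300, switches on target genes of the Hes and Hey families. Without it, Rbpj sits with corepressors on the same genes. In the blood system Notch1 directs early progenitors to the T cell lineage, and Notch2 supports marginal zone B cells and splenic dendritic cells.

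Levels are expected counts scaled to library size as CPM, with TMM factors, and differences are log2 fold changes of C57BL/6J over Rag2-/-γc-/-. Library totals ran from 28157745 to 62461126 expected counts. C57BL/6J library 1 stood apart, with mitochondrial genes at 1.34% of counts against 2.91 to 4.0% in the other 9. Rag2-/-γc-/- libraries 10 and 11 stood apart in their expression values. No label marks them, and their mitochondrial shares, 3.47 and 3.01%, were within the range of the others. Fits without them, or without libraries 7, 8 and 9, were thus chosen with the data known. With all 10 libraries, edgeR's quasi-likelihood test called 464 of 13966 tested genes higher in C57BL/6J (3.32%) and 624 lower (4.47%) at an adjusted p under 0.05. Without Rag2-/-γc-/- libraries 10 and 11 it called 19.3% higher and 17.4% lower, without libraries 7, 8 and 9 it called 1.01% higher and 0.87% lower, and without C57BL/6J library 1 it called 3.68% higher and 4.44% lower. Of 7 haematopoietic and myeloid markers, Ptprc (CD45) at 410 to 743 CPM, Itgam (CD11b) at 398 to 1160, Spi1 (PU.1) at 320 to 483, Cd34 at 98.6 to 489 and Runx1 at 34.6 to 66.5 were present in all libraries. The other two were low in 1 group, the progenitor receptor Kit at 3.21 to 7.52 CPM in C57BL/6J and 0.163 to 0.434 CPM in Rag2-/-γc-/- libraries, and the myeloid factor Cebpa at 1.03 to 4.96 and 9.38 to 34.9 CPM. The granulocyte precursor gene Mpo was at 0.796 CPM or less in all.

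The share of genes called depended on the tool. With all libraries DESeq2, run on 23191 genes, called 4.19% higher and 5.22% lower. Any gene that its own filtering left without an adjusted p was counted among the 23191 as not called. EdgeR with no count filter called 2.42% and 2.6%, edgeR with upper-quartile normalisation 3.44% and 4.4%, and limma-voom 3.45% and 4.05%. Limma-voom with sample weights called 23.7% higher and 23.0% lower, so its counts below stand against a high background.

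Per kilobase of merged exon, Rbpj and Notch2 were the most abundant of the 10 transcripts and Jag1 the scarcest. Over all 10 libraries Rbpj stood at 36.5 ± 4.91 CPM per kb (SD, n = 10) and Notch2 at 31.6 ± 7.37. Notch1 at 8.38 ± 3.72, Hes1 at 8.34 ± 2.18 and Maml1 at 8.18 ± 2.18 CPM per kb lay close together, followed by Notch4 at 4.77 ± 2.10 and Dtx4 at 4.12 ± 1.86. Maml2 at 1.5 ± 0.141, Maml3 at 0.737 ± 0.734 and Jag1 at 0.0564 ± 0.0240 CPM per kb closed the order. Over both groups together the ranges of each gene and the next in this order overlapped. Within a group some steps did not. Notch2 lay wholly above the next gene of the 10 in each group, at 14.1 to 38.3 CPM per kb against 6.97 to 11.8 for Hes1 in C57BL/6J, and at 29.6 to 40.3 against 5.56 to 15.8 for Notch1 in Rag2-/-γc-/- libraries, where Rbpj at 29.5 to 38.3 also lay above Notch1. In C57BL/6J libraries Maml2 at 1.56 ± 0.0929 CPM per kb (SD, n = 5) lay below the whole range of Notch4, and Maml3 at 0.119 ± 0.0724 below that of Maml2. In Rag2-/-γc-/- libraries Maml2 at 1.43 ± 0.159 and Maml3 at 1.35 ± 0.505 overlapped, and Maml3 lay wholly above Jag1. Notch3 followed at 0.00544 ± 0.00422 CPM per kb, and its range did not reach that of Jag1.

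**Figure D1:**
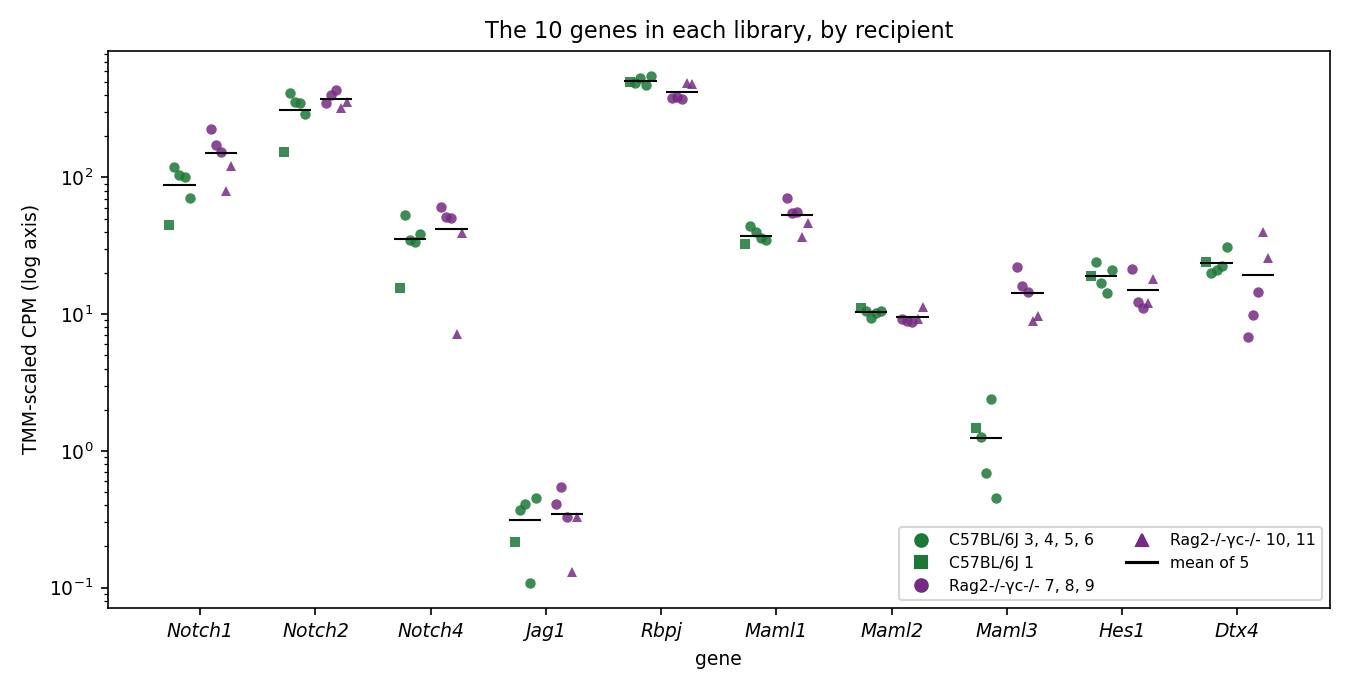
The level of each of the 10 genes in each library, as TMM-scaled CPM on a log axis, with C57BL/6J libraries in green, Rag2-/-γc-/- libraries in purple and a black bar at the mean of 5. Maml3 is at 0.453 to 2.39 CPM in all C57BL/6J libraries and at 8.89 to 22.0 CPM in all Rag2-/-γc-/- libraries, and the groups of the other 9 genes overlap.

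Notch2 made up most of the receptor RNA in both kinds of recipient. In C57BL/6J libraries 1, 3, 4, 5 and 6 it stood at 152, 413, 353, 350 and 290 CPM, and in Rag2-/-γc-/- libraries 7, 8, 9, 10 and 11 at 347, 401, 434, 319 and 354 CPM. All later lists of values follow this library order. C57BL/6J library 1 was the lowest of the 10, and the other 9 libraries overlapped. On the log2 scale the groups differed by -0.25 ± 0.22 (SE, n = 5 and 5), and -0.08 ± 0.12 without C57BL/6J library 1.

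Notch1 (GRCm38 chr2:26457903-26516663, minus strand) stood at 45.1, 119, 104, 100 and 71.0 CPM in C57BL/6J and at 225, 173, 154, 79.2 and 121 CPM in Rag2-/-γc-/- recipients. Libraries 7, 8 and 9 were well above every C57BL/6J library, library 11 just above the highest of them, and library 10 within their range. This was a log2 difference of -0.77 ± 0.30 with all libraries, -1.06 ± 0.27 without libraries 10 and 11, and -0.18 ± 0.33 without libraries 7, 8 and 9. A noncoding gene on the opposite strand, 0610009E02Rik, shares 1068 bp of exon with Notch1 and had 3.68 to 16.67 expected counts per library, against 1476 to 13273 for Notch1. The labels do not say whether the libraries keep strand.

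Notch4, a receptor otherwise known from endothelium, was also measured well above the count filter. Its values were 15.4, 53.4, 35.0, 33.6 and 38.2 CPM in C57BL/6J and 60.5, 51.7, 50.5, 7.15 and 39.2 CPM in Rag2-/-γc-/- recipients. Library 10 was the lowest of all, C57BL/6J library 1 the next, and the groups overlapped. The log2 difference was -0.25 ± 0.46, turning to 0.60 ± 0.60 without libraries 7, 8 and 9 and reaching -0.52 ± 0.27 without library 10. Endothelial marker genes are given with the other cell types below.

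Notch3 was close to the limit of the depth, with 0 to 5 expected counts and at most 0.0980 CPM in any library, and was not tested. As a share of the summed receptor CPM per kb, Notch2 took 73.3 ± 0.935% in C57BL/6J and 69.6 ± 8.70% in Rag2-/-γc-/- libraries (SD, n = 5 each). Notch1 took 15.7 ± 1.22% and 20.6 ± 4.96%, and Notch4 took 10.9 ± 1.61% and 9.78 ± 4.25%. The shares thus varied less among C57BL/6J than among Rag2-/-γc-/- recipients, where Notch1 ran from 15.4 to 28.5% and Notch4 from 2.46 to 13.5%. The summed level was 39.4 ± 12.8 CPM per kb in C57BL/6J, with 19.1 in library 1, and 50.2 ± 9.01 in Rag2-/-γc-/- libraries.

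Among the ligands, Jag2 was the only one above 1 CPM. Jag1 stood at 0.214, 0.370, 0.406, 0.109 and 0.453 CPM in C57BL/6J and at 0.407, 0.544, 0.326, 0.131 and 0.329 CPM in Rag2-/-γc-/- recipients, which are 4 to 24 counts per library. The groups overlapped fully, and the log2 difference was -0.19 ± 0.44, or 0.40 ± 0.66 without libraries 7, 8 and 9. Of the 7 other ligand genes, 6 were under 1 CPM in every library and only Jag2 was tested. Jag2 had 75.3, 126, 123, 116 and 126 CPM in C57BL/6J and 146, 104, 107, 107 and 126 CPM in Rag2-/-γc-/- libraries, a log2 difference of -0.06 ± 0.15 (edgeR adjusted p = 0.829). Its direction changed to 0.06 without C57BL/6J library 1. Dll4, a Delta ligand chosen for mention after its values were seen, did not overlap between groups, with 0.0247 to 0.0761 CPM in C57BL/6J and 0.0980 to 0.592 CPM in Rag2-/-γc-/- libraries, but did not pass the count filter. DESeq2, run without that filter, called it lower in C57BL/6J.

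All 16 genes that process the receptors were tested, and 1 of them, Psen2, fell in C57BL/6J recipients, against 4.47% of all genes. DESeq2 called 2 lower, and limma-voom with sample weights 7. Psen2 encodes a catalytic subunit of γ-secretase and had 70.0, 89.7, 100, 104 and 96.7 CPM in C57BL/6J against 143, 121, 129, 120 and 125 CPM in Rag2-/-γc-/- libraries. The groups did not overlap, and the log2 difference was -0.47 ± 0.11 (edgeR adjusted p = 0.0251). The call held in 6 of 10 fits that left out 1 library, with an adjusted p of 0.0620 at most, and was lost without libraries 7, 8 and 9 (log2 difference -0.40, adjusted p = 0.264). It was lost without C57BL/6J library 3 (adjusted p = 0.0545) or 6 (0.0546) and without Rag2-/-γc-/- library 7 (0.0544) or 9 (0.0620). The log2 difference was below 0 for 13 of the 16, with a median of -0.19 against 0.00 over all genes tested. Adam10, the protease that sheds the receptor ectodomain, was the other gene of this group without overlap, at 78.2 to 113 CPM against 119 to 128 CPM (log2 difference -0.24 ± 0.10, edgeR adjusted p = 0.167), and was picked for that after its values were seen.

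Rbpj, the DNA-binding partner of the freed receptor, was high throughout. It stood at 498, 493, 529, 475 and 550 CPM in C57BL/6J and at 382, 384, 376, 488 and 478 CPM in Rag2-/-γc-/- recipients. Libraries 7, 8 and 9 were below every C57BL/6J library, whereas libraries 10 and 11 lay within the C57BL/6J range. On the log2 scale the groups differed by 0.27 ± 0.10 with all libraries, 0.42 ± 0.08 without libraries 10 and 11, and 0.08 ± 0.10 without libraries 7, 8 and 9.

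Maml3 (ENSMUSG00000061143, GRCm38 chr3:51687611-52104891, minus strand) was the gene of the 10 that differed most. Its levels were 1.47, 1.26, 0.685, 2.39 and 0.453 CPM in C57BL/6J recipients, from 18 to 110 counts. In Rag2-/-γc-/- recipients they were 22.0, 16.0, 14.4, 8.89 and 9.74 CPM, from 272 to 1297 counts. Every Rag2-/-γc-/- library was above every C57BL/6J library, and libraries 10 and 11 were the lowest of their group. This was a log2 difference of -3.50 ± 0.42, or 11.3-fold higher in Rag2-/-γc-/- recipients. It was -3.79 ± 0.41 without libraries 10 and 11, -2.88 ± 0.48 without libraries 7, 8 and 9, and -3.55 ± 0.48 without C57BL/6J library 1.

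Maml1 and Maml2, which encode proteins of the same family, did not share this difference in size. Maml1 (GRCm38 chr11:50255634-50292311, minus strand) stood at 32.5, 44.1, 39.9, 35.8 and 35.1 CPM in C57BL/6J and at 70.7, 54.4, 56.2, 36.8 and 46.5 CPM in Rag2-/-γc-/- libraries. Libraries 7, 8, 9 and 11 were above the C57BL/6J range and library 10 within it. The log2 difference was -0.50 ± 0.16, reaching -0.69 ± 0.12 without libraries 10 and 11 and -0.15 ± 0.14 without libraries 7, 8 and 9. An opposite-strand noncoding gene, AL646002.1, overlaps 135 bp of Maml1 exon and had 24.16 to 71.46 counts, against 1063 to 4170 for Maml1.

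Maml2 (GRCm38 chr9:13619990-13709533, plus strand) had 11, 10.5, 9.31, 10.2 and 10.5 CPM in C57BL/6J and 9.14, 8.85, 8.69, 9.28 and 11.3 CPM in Rag2-/-γc-/- recipients. It had the smallest spread of the 10 genes relative to its mean, and the groups overlapped. On the log2 scale the groups differed by 0.12 ± 0.11, and 0.01 ± 0.13 without libraries 7, 8 and 9. In a bulk library, fewer cells that hold a transcript and less of it per cell cannot be told apart, which applies to Maml3 and to every gene below.

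Of the summed Mastermind CPM per kb, Maml3 took 1.82, 1.24, 0.751, 2.76 and 0.541% in C57BL/6J libraries and 12.9, 12.0, 10.7, 9.51 and 8.41% in Rag2-/-γc-/- libraries. Its mean share was thus 1.42 ± 0.897% and 10.7 ± 1.82% (SD, n = 5 each). Maml1 remained the main Mastermind transcript, at 80.0 ± 2.70% and 77.2 ± 1.80%, and the share of Maml2 was 18.6 ± 2.32% and 12.1 ± 3.30%. The summed level of the family was 8.46 ± 0.788 CPM per kb in C57BL/6J and 12.4 ± 2.70 in Rag2-/-γc-/- libraries, with ranges of 7.67 to 9.70 and 8.91 to 16.3 that overlapped.

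**Figure D2:**
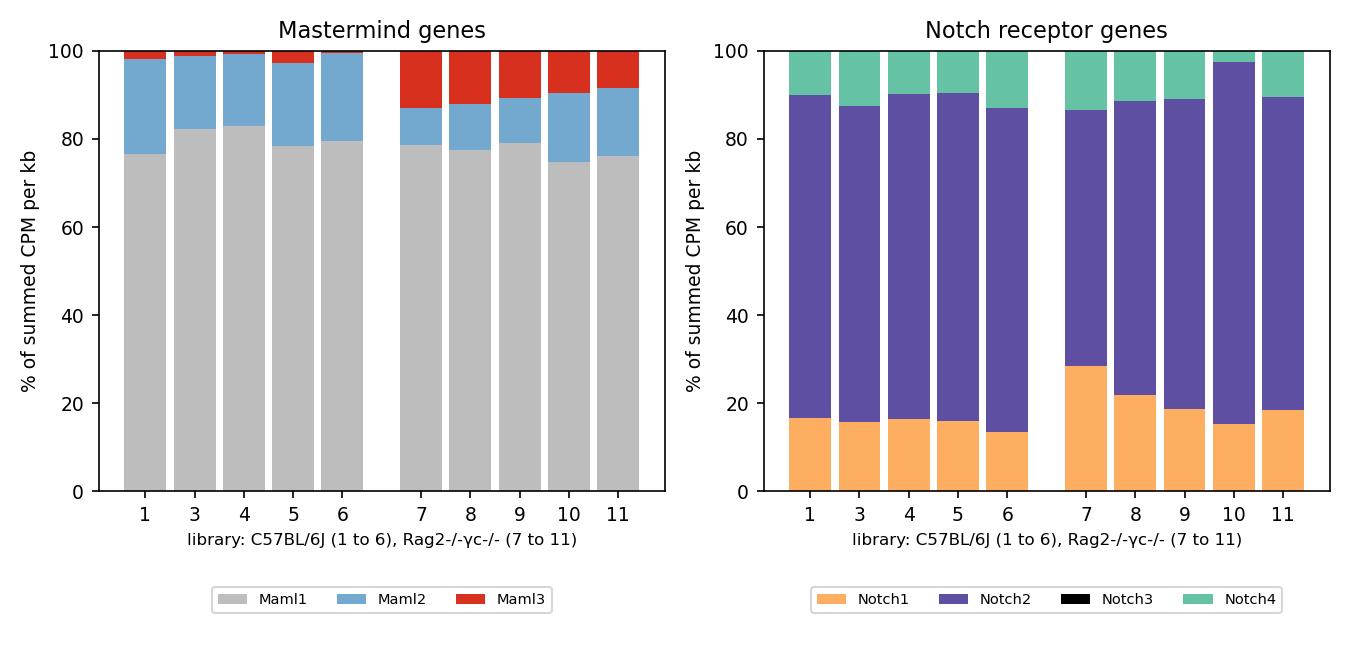
Shares of each gene in the summed CPM per kb of the Mastermind genes (left) and of the Notch receptor genes (right), 1 bar per library. Maml3 takes 0.541 to 2.76% in C57BL/6J and 8.41 to 12.9% in Rag2-/-γc-/- libraries, while Notch2 takes the largest part of the receptor RNA in all 10.

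The promoters of the 3 Mastermind genes are shown because 1 of the 3 differed strongly between recipients and the others less. Each is the RefSeq sequence before a transcription start on GRCm38 (table build GRCm38.p6), 5′ to 3′ on the gene's strand, cut where an annotated exon begins. Capitals mark TGGGAA or its reverse complement TTCCCA, the core of the sequence that Rbpj binds. For Maml3 it is chr3:52105077-52105256 (minus strand), for Maml1 chr11:50292337-50292586 (minus strand), and for Maml2 chr9:13662210-13662459 (plus strand), the start that lies within the gene as the deposited table gives it. A second Maml2 start, with the window chr9:13297708-13297957 before it, lies outside that span at the GENCODE M21 gene start and is not printed.
Maml3: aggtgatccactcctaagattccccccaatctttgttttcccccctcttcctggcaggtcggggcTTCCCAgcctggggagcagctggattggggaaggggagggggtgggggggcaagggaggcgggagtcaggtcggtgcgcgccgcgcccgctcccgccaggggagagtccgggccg
Maml1: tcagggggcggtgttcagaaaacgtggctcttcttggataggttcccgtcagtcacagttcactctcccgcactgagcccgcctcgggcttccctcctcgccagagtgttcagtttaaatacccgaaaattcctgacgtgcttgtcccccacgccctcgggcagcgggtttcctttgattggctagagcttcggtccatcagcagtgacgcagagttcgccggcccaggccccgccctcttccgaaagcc
Maml2: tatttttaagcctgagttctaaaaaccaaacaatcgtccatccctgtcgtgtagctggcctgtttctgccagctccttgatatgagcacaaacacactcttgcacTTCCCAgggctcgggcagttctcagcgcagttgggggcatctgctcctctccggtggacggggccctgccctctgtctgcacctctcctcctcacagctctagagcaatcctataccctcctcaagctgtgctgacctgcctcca
Over the full 250 bases before each start, Maml3 had 69.2% GC and 18 CpG, Maml1 60% and 18, this Maml2 start 55.2% and 6, and the unprinted Maml2 start 48.0% and 2, against medians of 52.4% and 6 over 32851 RefSeq promoters. The Maml3 core match lies 185 bases before the start and that of Maml2 145 bases before it. No match was in the Maml1 window or in that of the unprinted Maml2 start. RefSeq starts were found for 8 of the 10 genes, with 10 starts in all, and 4 of these starts, in Maml3, Rbpj and Maml2, held the core on either strand, against 21.6% of all promoters. Both Rbpj starts are among them, and their windows overlap. The match 205 bases before the later Rbpj start is the same site as that 65 bases before the earlier, so it is counted for both. The longer form GTGGGAA, searched on both strands and containing the core, was in 0 of the 10 starts and in 5.42% of all promoters. These matches describe letters in a window and are not measured binding sites.

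The remaining genes of the nuclear complex were 6, of which 5 were tested and 0 were called by edgeR (2 had an unadjusted p under 0.05; DESeq2 called 1, limma-voom 0 and limma-voom with sample weights 3). The one with the smallest adjusted p was Crebbp, an acetyltransferase that works with Mastermind proteins, at 35.9, 58.2, 57.7, 54.7 and 41.4 CPM in C57BL/6J and 90.6, 78.6, 87.6, 49.9 and 65.2 CPM in Rag2-/-γc-/- libraries. Library 10 was within the C57BL/6J range and the other 4 above it. This was a log2 difference of -0.59 ± 0.18 (edgeR adjusted p = 0.0780), and -0.70 without library 10 (adjusted p = 0.0186). Rbpjl, a relative of Rbpj, was under 1 CPM in every library.

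Corepressor genes, whose proteins hold Rbpj targets silent, numbered 19, of which 17 were tested. Their median log2 difference was -0.02, with 10 of 17 below 0 and a range of -0.43 to 0.42. At the upper end was Bend6, which encodes an Rbpj-binding corepressor and was picked after its values were seen, at 9.99 to 13.4 CPM in C57BL/6J and 6.98 to 9.66 CPM in Rag2-/-γc-/- libraries. Its groups did not overlap, and the log2 difference was 0.42 ± 0.13 (edgeR adjusted p = 0.0716).

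Hes1, the best known target and itself a transcriptional repressor, showed little difference. It had 18.9, 24.0, 17.0, 14.2 and 21 CPM in C57BL/6J and 21.2, 12.2, 11.1, 12.1 and 18.1 CPM in Rag2-/-γc-/- libraries. Libraries 8, 9 and 10 were below every C57BL/6J library and libraries 7 and 11 within their range. On the log2 scale the groups differed by 0.35 ± 0.20, between 0.25 and 0.50 in the fits without 1 library.

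Most other targets were scarcely present. Of 17 further target genes 10 were under 1 CPM in every library, among them Hey1 at 0.181 CPM or less and Heyl at 0.0339 CPM or less. Of the 6 that passed the count filter edgeR called 0, and 0 had an unadjusted p under 0.05; limma-voom called 0 and limma-voom with sample weights 2, Myc and Ccnd1, both higher in C57BL/6J. The target with the smallest adjusted p was Hes7, a repressor of the segmentation clock, at 0.244 to 0.740 CPM in C57BL/6J and 0.0980 to 0.481 CPM in Rag2-/-γc-/- libraries (log2 difference 0.86 ± 0.47, edgeR adjusted p = 0.258).

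Abundant targets that many other signals also drive are given here after their values were seen. Myc, the growth-promoting transcription factor, stood at 70.0, 80.1, 69.3, 65.5 and 77.4 CPM in C57BL/6J and at 27.5, 38.3, 39.4, 87.5 and 90.9 CPM in Rag2-/-γc-/- libraries. Ccnd1, which encodes cyclin D1, stood at 560, 489, 419, 434 and 574 CPM and at 285, 235, 220, 706 and 785 CPM. In both genes libraries 7, 8 and 9 were below all C57BL/6J libraries and libraries 10 and 11 above all of them. The edgeR adjusted p was 0.464 for Myc and 0.803 for Ccnd1 with all libraries.

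Targets known from lymphocytes were also picked after their values were seen. Dtx1, a Deltex gene of B and T cells, had 7.94, 1.46, 0.355, 0.109 and 1.66 CPM in C57BL/6J libraries and at most 0.0327 CPM in any Rag2-/-γc-/- library. Cr2, which encodes the complement receptor CD21 of marginal zone and follicular B cells, had 16.6, 1.46, 0.533, 0.196 and 2.26 CPM in C57BL/6J and 0 counts in all 5 Rag2-/-γc-/- libraries, where 3 counts over the group would be 0.0151 CPM. Both genes had the same order over the C57BL/6J libraries, with library 1 highest and library 5 lowest. The T cell marker Cd3e, picked in the same way, had 3.42, 1.41, 0.406, 0.152 and 0.730 CPM in C57BL/6J, likewise highest in library 1 and lowest in library 5. It had at most 0.0327 CPM in Rag2-/-γc-/- libraries. Cd5, of the same marker list, went the other way, with means of 1.43 CPM in C57BL/6J and 2.83 CPM in Rag2-/-γc-/- libraries. Neither Dtx1 nor Cr2 passed the count filter with all libraries. DESeq2, run without that filter, called 5 of 17 targets higher in C57BL/6J (against 4.19% of all genes), Dtx1, Cr2, Hes5, Bcl11b and Tcf7. Bcl11b and Tcf7 are T cell transcription factors, and Hes5 had at most 0.305 CPM.

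**Figure D3:**
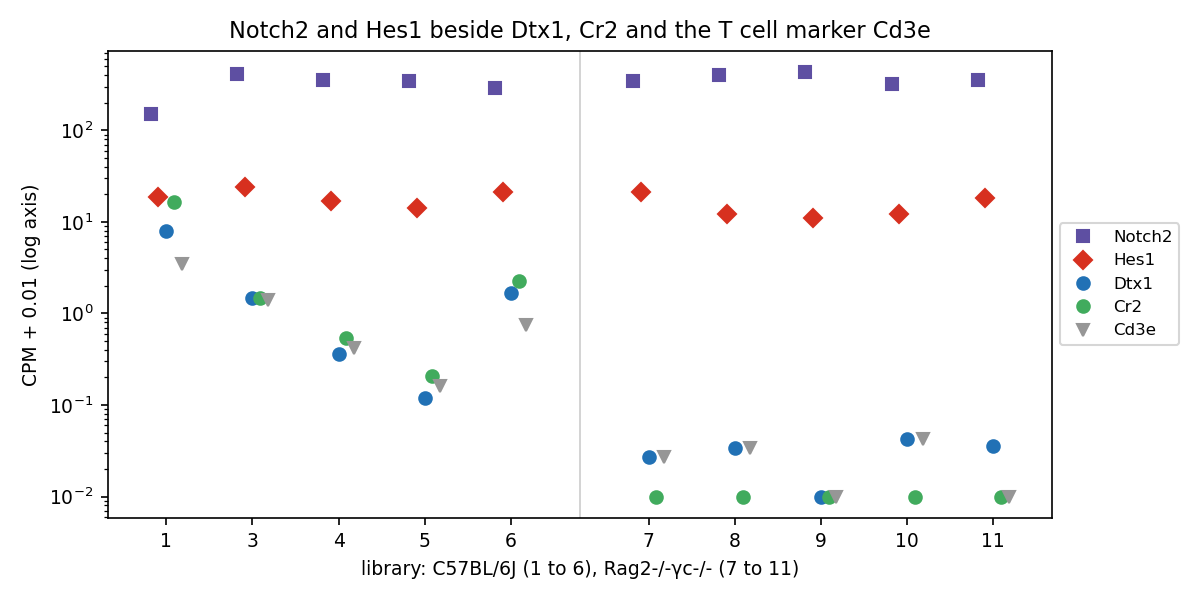
CPM plus 0.01, on a log axis, of Notch2, Hes1, Dtx1, Cr2 and the T cell marker Cd3e in each library. Dtx1 and Cr2 are highest in C57BL/6J library 1, as Cd3e is, and at or near 0 in all Rag2-/-γc-/- libraries, while Hes1 stays between 11.1 and 24.0 CPM in all 10.

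Dtx4, a Deltex-family ubiquitin ligase, split the Rag2-/-γc-/- group. It had 24.2, 20.1, 21, 22.3 and 31.2 CPM in C57BL/6J and 6.82, 9.87, 14.5, 39.6 and 25.8 CPM in Rag2-/-γc-/- libraries. Libraries 7, 8 and 9 were below every C57BL/6J library, library 10 was above all of them and library 11 was within their range. This was a log2 difference of 0.30 ± 0.40 with all libraries, 1.21 ± 0.24 without libraries 10 and 11, and -0.46 ± 0.21 without libraries 7, 8 and 9, so its direction depended on which Rag2-/-γc-/- libraries were compared.

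Of the 16 other genes of receptor and ligand turnover 14 were tested, and 1, Neurl1b, rose in C57BL/6J recipients, against 3.32% of all genes. DESeq2 called 4 higher and 1 lower of 16, and limma-voom with sample weights 4 higher and 3 lower of 14, against the shares of each tool above. Neurl1b encodes a Neuralized-type ubiquitin ligase that acts on Notch ligands, and had 10.7, 11, 11.4, 12.1 and 12.0 CPM in C57BL/6J against 5.90, 8.28, 6.62, 8.23 and 6.30 CPM in Rag2-/-γc-/- libraries. The groups did not overlap, and libraries 10 and 11 lay among the other Rag2-/-γc-/- libraries. The log2 difference was 0.70 ± 0.13 (edgeR adjusted p = 0.00746), and it was called in all 10 fits that left out 1 library. Without libraries 7, 8 and 9 it was 0.66 (adjusted p = 0.0634).

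**Figure D4:**
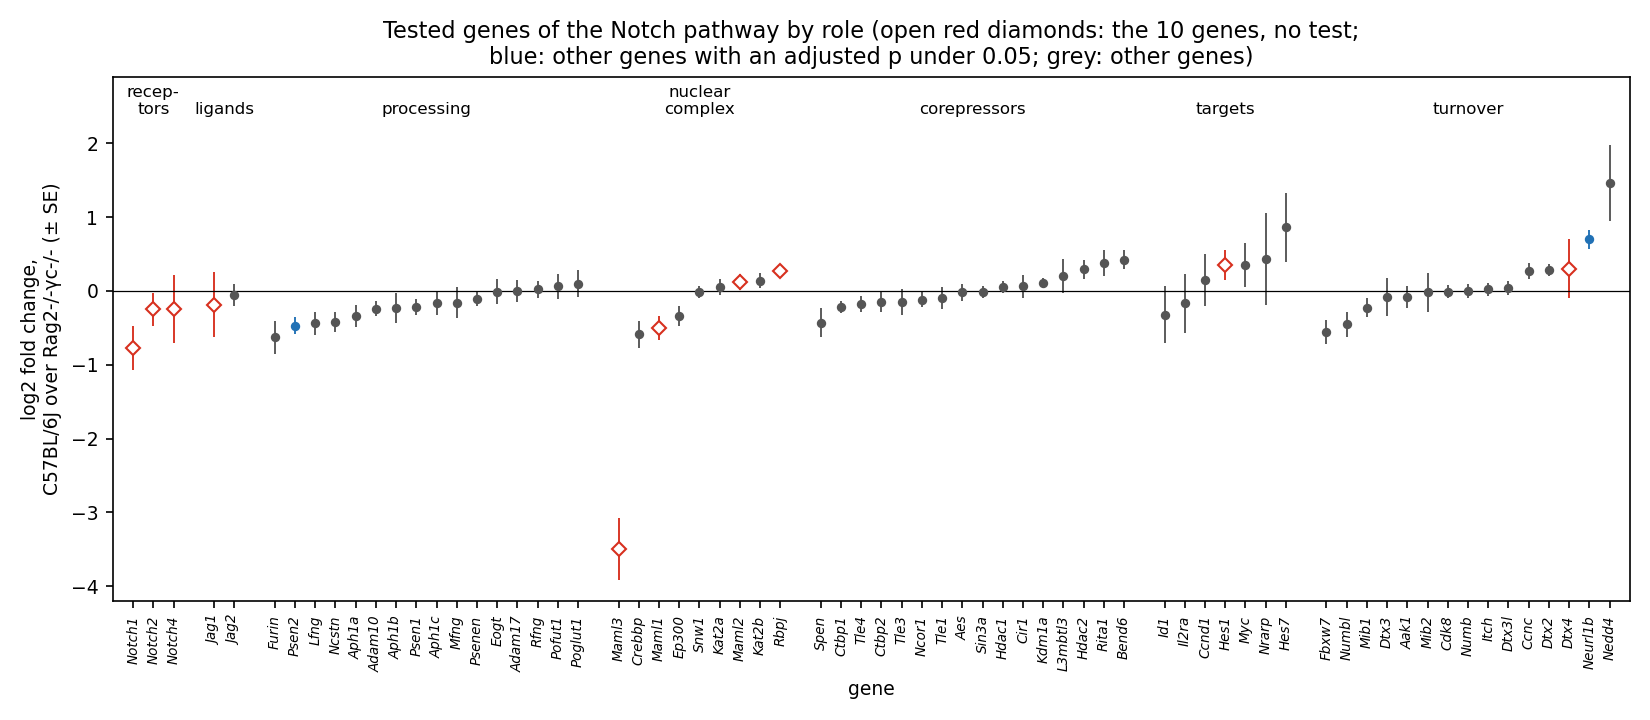
Log2 fold change of C57BL/6J over Rag2-/-γc-/- with its standard error for tested pathway genes, by role, with the 10 genes as open diamonds. Maml3 at -3.50 is far below all others, and Psen2 and Neurl1b, in blue, passed the threshold.

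Counted together, 0 of the 10 genes were called higher and 1, Maml3, lower in C57BL/6J by edgeR (4 had an unadjusted p under 0.05), against 3.32% and 4.47% of all tested genes, and nothing is read from this count since the choice of genes used the contrast. All 10 passed the count filter. Maml3 was the 1 of 10 without overlap between groups, against 8.50% of tested genes. Without libraries 10 and 11 the count was 2 higher (Rbpj and Dtx4) and 3 lower (Maml1, Maml3 and Notch1), against 19.3% and 17.4%. Nothing is read from this count or those that follow either, and the libraries to leave out were chosen with the data known. Without libraries 7, 8 and 9 the 1 gene called was Maml3, against 1.01% and 0.87%, and so it was without C57BL/6J library 1, against 3.68% and 4.44%. The count of higher members was also 0 by DESeq2 and limma-voom, and 3 by limma-voom with sample weights, which called 23.7% of all genes higher.

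Among the 80 other pathway genes 59 were tested, and edgeR called 1 higher and 2 lower. Neither share was above that over all tested genes, 3.32% higher and 4.47% lower. The median log2 difference of the 59 was -0.02, with 37 below 0, against 6919 of 13966 over all tested genes. That count varied with single libraries. It was 31 of 59 without C57BL/6J library 1, 32 of 63 without Rag2-/-γc-/- library 7, and again 37 of 59 without C57BL/6J library 3 or 6. Of the 59, 6 did not overlap between groups, against 8.50% of all. Without libraries 10 and 11 the calls were 12 higher and 12 lower of 63 tested, against a background of 19.3% and 17.4%. Without libraries 7, 8 and 9, edgeR called 0 of 64 in either direction (13 had an unadjusted p under 0.05). The counts thus moved with the libraries used, as the background over all genes did.

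C57BL/6J library 1 and Rag2-/-γc-/- library 10 were often the lowest of their groups. Library 1 was lowest in 4 of the 10 genes and in 54.2% of the 59 other pathway genes, against 33.5% of all tested genes. Library 10 was lowest in 6 of the 10 genes and in 40.7% of the 59, against 28.3% of all tested genes.

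Markers of 10 cell types were summed per list, and the sums were compared by an exact permutation test over every way of splitting the libraries 5 and 5 (two-sided, smallest possible p 0.00794, adjusted over 10 lists). Each list is named for a cell type, but the leukaemia cells may express its genes themselves. Which cells held these transcripts was not tested. Each sum is also given without its leading gene, the one with the highest mean, an alternative added after the values were seen. The 13 T cell genes summed to 64.4 to 117 CPM in C57BL/6J and 20.3 to 46.4 CPM in Rag2-/-γc-/- libraries (adjusted p = 0.0265). The leading gene Cd8a made up most of this, with a mean of 71.0 and 28.9 CPM, whereas Cd8b1 had 0.942 and 0 CPM. Without Cd8a the other 12 genes summed to 2.85 to 50.7 CPM and 4.43 to 6.63 CPM (adjusted exact p = 0.278). The mean was higher in C57BL/6J for 11 of these 12 and lower for 1.

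The 9 B cell genes summed to 11.4 to 167 CPM and 39.1 to 50.6 CPM (adjusted exact p = 0.388), with 167 CPM in C57BL/6J library 1 and 26.3 CPM at most in the other 4. Cd22 led this sum and was lower in C57BL/6J, with a mean of 13.0 against 43.7 CPM, whereas the mean of each of the other 8 genes was higher in C57BL/6J. Those 8 summed to 1.61 to 137 CPM in C57BL/6J, or 1.61 to 19.4 CPM without library 1, and to 0.686 to 1.37 CPM in Rag2-/-γc-/- libraries (adjusted exact p = 0.0265).

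The 12 endothelial genes, given for Notch4 and Dll4, summed to 7.40 to 14.9 CPM in C57BL/6J and 34.2 to 45.4 CPM in Rag2-/-γc-/- libraries (adjusted exact p = 0.0265). Pecam1 led this sum, 9 of the 12 were under 1 CPM on average, and Tie1 and Sox17 were at 0 in all libraries. Without Pecam1 the sums were 4.29 to 11.2 CPM and 3.89 to 16.4 CPM (adjusted exact p = 0.520). The 10 stromal genes summed to 23.5 to 97.1 CPM and 12.3 to 33.1 CPM (adjusted exact p = 0.0496), led by Acta2 at a mean of 49.8 and 16.5 CPM, with Dcn and Lum at 0. Without Acta2 they summed to 1.71 to 5.18 CPM and 1.99 to 7.64 CPM (adjusted exact p = 0.540), and leaving out 1 library lost the call in 7 of 10 cases.

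The 7 megakaryocyte genes summed to 7.45 to 13.0 CPM and 2.29 to 9.42 CPM (adjusted exact p = 0.0496), led by Itga2b at a mean of 7.53 and 2.13 CPM. Without it they summed to 0.981 to 3.81 CPM and 1.14 to 6.67 CPM (adjusted exact p = 0.283), and the call was lost in 6 of 10 cases without 1 library. The 10 monocyte and macrophage genes, led by Cd68, summed to 218 to 272 CPM and 240 to 367 CPM (adjusted exact p = 0.0496), a call lost in 7 of 10 such cases, and without Cd68 to 29.2 to 85.3 CPM and 101 to 195 CPM (adjusted exact p = 0.0265). The 12 dendritic cell genes, led by Wdfy4, summed to 5550 to 6730 CPM and 3750 to 5530 CPM (adjusted exact p = 0.0265), and without it to 3580 to 4540 CPM and 2110 to 3650 CPM (adjusted exact p = 0.0397). Of the 11 genes other than Wdfy4, the mean was higher in C57BL/6J for 9 and lower for 2. Sirpa, picked after its values were seen, was lower, with means of 25.3 and 154 CPM. This list had the highest sum of the 10 in every library. The 8 NK cell genes, led by Klrd1, summed to 28.4 to 42.8 CPM and 10.8 to 28.9 CPM (adjusted exact p = 0.0397), and without it to 14.2 to 21.3 CPM and 3.07 to 10.3 CPM (adjusted exact p = 0.0265). Klrd1, with means of 18.3 and 12.9 CPM, and Klrk1, with 14.1 and 5.05 CPM, made up most of the sum. Of the 8 genes 5 were under 1 CPM on average, and Klrb1c went the other way, with means of 0.809 and 2.07 CPM. The 10 erythroid genes, led by Tfrc, summed to 105 to 198 CPM and 158 to 273 CPM (adjusted exact p = 0.0476), and without it to 14.9 to 146 CPM and 74.8 to 243 CPM (adjusted exact p = 0.0476). The 11 granulocyte genes, led by S100a9, summed to 4.18 to 28.9 CPM and 5.49 to 28.4 CPM (adjusted exact p = 0.389), and without it to 2.84 to 20.5 CPM and 3.85 to 19.5 CPM (adjusted exact p = 0.520). The part of these cells or genes in the differences above was not tested.

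The transcripts whose profile over the 10 libraries was most like that of Maml3 were Sorl1, Prss16, Pecam1, Tnfrsf13b and Cebpa. Likeness was the root-mean-square distance between log2 CPM profiles centred on their means, over the 9988 genes averaging 5 CPM or more, and this choice used the contrast itself. The distances were 0.42 for Sorl1, a sorting receptor, 0.47 for Prss16, a serine protease, 0.57 for Pecam1 (CD31), 0.63 for Tnfrsf13b, the receptor TACI, and 0.64 for Cebpa, a transcription factor of myeloid cells. All 5 were higher in every Rag2-/-γc-/- library than in any C57BL/6J library. Sorl1 stood at 21.4, 8.04, 4.85, 10.4 and 3.12 CPM in C57BL/6J and at 124, 109, 96.2, 48.6 and 53.7 CPM in Rag2-/-γc-/- libraries, with libraries 10 and 11 the lowest of their group, as for Maml3. Pecam1 did not have that step, at 33.2, 28.9, 24.1, 30.3 and 27.2 CPM in Rag2-/-γc-/- libraries against 1.31 to 7.39 CPM in C57BL/6J.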

How the data were processed

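RNA of GFP+ splenocytes was measured in 10 libraries, 5 per recipient group, grouped from the labels. The authors deposited expected counts per Ensembl gene; cutadapt 1.11, STAR 2.5.2a, RSEM 1.2.30, edgeR and build GRCm38 are named per the submitters' processing notes, while the sources used here do not give the annotation release. A read that fits several genes is shared out among them in such counts, which affects near-identical genes. They were rounded to whole numbers. No per-sample column was left unused.

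The members and all gene lists were chosen with earlier results of these data known. Of 214 list entries 213 were matched, 3 of them through an older symbol or identifier. All genes were fitted with edgeR 4.0.16 (R 4.3.3; glmQLFit, glmQLFTest, TMM, filterByExpr with a minimum count of 10 and minimum total of 15, group term, Benjamini-Hochberg adjustment over 13966 genes, threshold 0.05). Standard errors were derived from the unshrunken coefficient and the F statistic. Exon lengths are merged exons of GENCODE M21, and promoters are from RefSeq. On simulated data for this comparison (13966 genes, 3 sets of 200 changed genes) recovery was 24.9% at a 1.5-fold change, 66.2% at 2-fold and 90.9% at 4-fold, and 3.71% of calls were false. The simulated libraries of a group shared the same mean for each gene. None stood apart together, as some Rag2-/-γc-/- libraries did here, so the rates do not cover that structure.

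Named were the 10 genes, Notch3, in each list up to 4 other genes past the threshold or the 1 with the smallest p, and the 5 genes with a mean of at least 5 CPM nearest in profile to Maml3; other names were picked after their values were seen and are marked so. A gene named by the rule may be left out, as not reported here. Alternatives were RLE and upper-quartile normalisation, DESeq2 1.42.0, limma-voom (limma 3.58.1) with and without sample weights, no filter, a filter of 1 CPM in 5 libraries, and fits without each library in turn, without Rag2-/-γc-/- libraries 10 and 11, and without 7, 8 and 9. Levels per length were also taken without length and, added after the data were seen, with the longest coding transcript; sums of markers without their leading gene were likewise added.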

Additional observations from a re-analysis of the deposited data

Results flagged for a closer look

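In groups of 5 libraries, a library was singled out where its gap to the nearest other, divided by the range of the group, was above 0.71. Chance alone does so in about 1 in 20 groups, and 32 groups were examined here. Maml2 stood at 11.3 CPM in Rag2-/-γc-/- library 11, above the other 4 at 8.69 to 9.28 CPM, with a gap of 0.77 of the range. Jag2 stood at 75.3 CPM in C57BL/6J library 1, below the other 4 at 116 to 126 CPM, with a gap of 0.80 of the range. That library also had the lowest mitochondrial share, 1.34%, and the highest summed B cell markers, 167 CPM; their part in the Jag2 value was not tested.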

How the results depend on the processing

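The log2 difference of Maml3, given as a description, was -3.88 to -3.28 when 1 library was left out and -2.88 without Rag2-/-γc-/- libraries 7, 8 and 9. The counts moved with the tool and the libraries, and nothing is read from those of the members. Members called higher, 0 with all libraries, were 3 by limma-voom with sample weights (23.7% of all genes higher, 23.0% lower) and 2 without libraries 10 and 11 (19.3% and 17.4%), and 0 to 1 when 1 library was left out. Members called lower, 1 with all libraries, were 2 by DESeq2 (5.22%), 3 by limma-voom with sample weights, 3 without libraries 10 and 11, and 1 to 3 when 1 library was left out, the 3 without library 10. Over all genes, leaving out 1 library called 1.94 to 7.58% higher and 2.15 to 9.32% lower.

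Pathway genes called higher, 1 with all libraries, were 2 with upper-quartile normalisation (3.44% of all genes), 9 of 79 by DESeq2 (4.19% of all genes), 11 of 59 by limma-voom with sample weights, 6 of 79 with no filter (2.42%), 12 without libraries 10 and 11, 0 without libraries 7, 8 and 9 (1.01%), and 1 to 6 when 1 library was left out. Those called lower, 2 with all libraries, were 6 by DESeq2 (5.22% of all genes), 1 by limma-voom (4.05%), 15 by limma-voom with sample weights, 12 without libraries 10 and 11, 0 without libraries 7, 8 and 9 (0.87%), and 0 to 6 when 1 library was left out. Leaving out libraries also lowers the number per group. DESeq2 and the fit with no filter were run on 79 rather than 59 of these genes. For the other settings the cause was not tested. Jag2, at -0.06, was 0.13 by limma-voom with sample weights and -0.10 to 0.06 when 1 library was left out. Levels were ranked over the 10 genes with Jag2 and Notch3. Without length, Notch1 ranked 3 rather than 4, Hes1 8 rather than 5, Maml1 5 rather than 6, Notch4 6 rather than 7 and Dtx4 7 rather than 8. With the longest coding transcript no rank over all libraries changed, but Rbpj stood at 84.8 CPM per kb against 32.5 for Notch2. Within a group some ranks changed, and Rbpj ranked 1 rather than 2 in Rag2-/-γc-/- libraries. Of 100 values of summed markers without 1 library, 20 lost their call and 1 gained it. Without the leading gene of a list, the log2 difference changed sign for B cell markers (3.57), stromal markers (-0.30) and megakaryocyte markers (-0.85), an alternative chosen after seeing the data.

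No paired analysis was possible because the title numbers differ between the groups. Jag1, Hes7 and Notch3, with few counts, were limited by depth.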

Other observations

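The genes beside Maml3 on chromosome 3 were examined because Maml3 is long (417.3 kb) and differed strongly. The 4 nearest tested genes on each side were Rab33b, Setd7, AC102860.1 and Mgst2 towards lower coordinates and Foxo1, Gm10293, Cog6 and Nhlrc3 towards higher ones. EdgeR called 0 of these 8, with 2 at an unadjusted p under 0.05, and their log2 differences ran from -0.74 to 0.32. DESeq2 and limma-voom also called 0, and limma-voom with sample weights called 3.

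Mgst2, a microsomal glutathione transferase gene 4.9 kb from Maml3, stood at 1.16, 0.173, 0.101, 0.218 and 0.176 CPM in C57BL/6J and 0.899, 0.686, 0.724, 0.359 and 0.278 CPM in Rag2-/-γc-/- libraries. C57BL/6J library 1 was the highest of the 10 and the other 4 were below every Rag2-/-γc-/- library. Foxo1, a transcription factor gene 163.4 kb away, stood at 16.5 to 27.8 CPM and 18.9 to 27.5 CPM, and the groups overlapped.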
